A study of Mus musculus with 2 samples.

Results

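De novo lipogenesis is the making of fatty acids from sugar carbon or acetate. The genes described here are 9 by name: Pcx, Slc25a1, Acly, Acss2, Acaca, Acacb, Fasn, Mcat and Mlxipl. Mlxipl encodes the transcription factor ChREBP, and Mcat encodes an enzyme of the separate fatty acid synthesis route of mitochondria. The others encode enzymes and a carrier of de novo lipogenesis. All 9 genes were taken by name, as all non-control probes that carry these names or an older one. No cut on their values was used, but the choice was made with earlier results of these data known. Of the 9 genes, 8 had a probe that could be named, with 14 probes among 40979 in use. Pcx, Slc25a1 and Mlxipl (as Wbscr14) carried their names in the array files, on 4 probes. The other 10 probes were named through an accession, an older symbol, a RIKEN clone or the probe's description. No probe carried the name Acaca, and 5 probes described as acetyl-CoA carboxylase without a gene name are given separately.

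RNA came from the interscapular brown adipose tissue of mice that had lost ROR genes, Rora (RORa-/- in the labels) among them, called double knockouts (DKO), and of wild-type mice (WT). Both genotypes were male C57BL/6 mice aged 2 to 3 months, with 4 mice named per genotype and tissue taken near circadian time 20. The labels name no treatment, and they describe the deletions without a tissue limit. Each of 2 whole mouse genome arrays carried both genotypes, and DKO was labelled with Cy5 on the first array and with Cy3 on the other, with WT in the opposite dye. The labels do not say whether RNA of the 4 mice was pooled or whether the arrays shared extracts, so they were counted as 1 replicate per genotype. No test between genotypes was therefore possible, and a gene was called only by size: a mean change of at least 2-fold, with at least 1.5-fold the same way on each array, and with the higher genotype well above background on both.

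In brown fat, cytosolic citrate is split to acetyl-CoA, acetyl-CoA is carboxylated to malonyl-CoA, and fatty acid synthase joins these units into palmitate. The route supplies fatty acids that the tissue can store or burn for heat, and it is known to run alongside fatty acid oxidation in cold-exposed brown fat. Its genes are known targets of the sterol response element binding protein SREBP-1c, which works with the factors Sp1 and NF-Y at many promoters, and of ChREBP, which senses sugar metabolites. ROR receptors bind the core hexamer shared by many nuclear receptors, where it follows a stretch rich in A and T.

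The promoters of Acss2, Slc25a1, Acly, Fasn and Mlxipl are shown because the results turn on these enzymes, their citrate carrier and their regulator, and because the factors above are known to act at such sites. Each line holds 250 bases before and 50 bases after an annotated gene start, read 5′ to 3′ on the gene's strand, from RefSeq on build GRCm38.p6. Capitals mark every match, on either strand, to the nuclear receptor hexamer AGGTCA, the E-box CACGTG, the sterol response element TCACNCCAC, the NF-Y box CCAAT or the GC box GGGCGG, which Sp1 binds. A match on the opposite strand appears as its reverse complement.
Acss2, chr2:155517793-155518092, plus strand: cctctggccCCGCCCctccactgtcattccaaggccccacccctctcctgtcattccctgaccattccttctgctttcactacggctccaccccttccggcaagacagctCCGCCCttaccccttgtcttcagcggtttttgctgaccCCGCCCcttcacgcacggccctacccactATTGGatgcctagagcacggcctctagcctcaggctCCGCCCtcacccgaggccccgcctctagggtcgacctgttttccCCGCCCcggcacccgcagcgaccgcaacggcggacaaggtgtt
Slc25a1, chr16:17928170-17928469, minus strand: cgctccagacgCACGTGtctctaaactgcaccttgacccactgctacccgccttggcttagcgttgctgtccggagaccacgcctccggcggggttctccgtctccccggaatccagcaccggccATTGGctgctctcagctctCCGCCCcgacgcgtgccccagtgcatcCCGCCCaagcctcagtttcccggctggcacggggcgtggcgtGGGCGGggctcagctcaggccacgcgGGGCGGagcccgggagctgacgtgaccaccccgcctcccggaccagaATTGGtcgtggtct
Acly, chr11:100527951-100528250, minus strand: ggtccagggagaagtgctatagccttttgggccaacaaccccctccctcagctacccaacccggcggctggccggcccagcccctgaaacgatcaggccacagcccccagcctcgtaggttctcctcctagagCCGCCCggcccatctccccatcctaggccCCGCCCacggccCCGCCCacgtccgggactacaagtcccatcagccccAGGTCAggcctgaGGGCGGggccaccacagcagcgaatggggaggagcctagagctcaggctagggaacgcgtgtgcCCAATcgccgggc
Fasn, chr11:120824498-120824797, minus strand: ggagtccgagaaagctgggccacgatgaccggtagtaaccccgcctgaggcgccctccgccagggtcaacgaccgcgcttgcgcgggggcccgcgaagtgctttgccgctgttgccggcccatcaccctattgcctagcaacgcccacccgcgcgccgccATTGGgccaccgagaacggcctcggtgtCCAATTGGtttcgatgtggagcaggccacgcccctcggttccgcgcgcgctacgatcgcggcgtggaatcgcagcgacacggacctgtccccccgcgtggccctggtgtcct
Mlxipl upstream start, chr5:135089640-135089939, plus strand: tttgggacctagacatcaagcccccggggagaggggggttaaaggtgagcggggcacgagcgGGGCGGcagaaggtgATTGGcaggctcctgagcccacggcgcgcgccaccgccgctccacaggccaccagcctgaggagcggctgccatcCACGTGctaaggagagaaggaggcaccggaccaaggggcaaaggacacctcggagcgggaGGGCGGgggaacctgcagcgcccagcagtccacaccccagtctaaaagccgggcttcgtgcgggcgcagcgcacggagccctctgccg
Mlxipl downstream start, chr5:135106641-135106940, plus strand: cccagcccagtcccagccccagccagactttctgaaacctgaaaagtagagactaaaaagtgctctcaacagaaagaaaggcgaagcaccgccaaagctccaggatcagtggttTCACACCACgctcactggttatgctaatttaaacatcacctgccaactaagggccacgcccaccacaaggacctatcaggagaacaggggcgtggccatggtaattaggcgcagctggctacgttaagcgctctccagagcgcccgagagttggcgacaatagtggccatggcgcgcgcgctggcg

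Windows were found for 8 of the 9 genes, 10 windows in all, since Mlxipl and Pcx have 2 annotated starts each. The starts used for Acaca, Acacb and Fasn are not the outermost annotated ones, and other starts were not searched. The Mlxipl starts lie 17001 bases apart. CCAAT was found in 8 of 10 windows, against 37.4% of all 32851 mouse promoter windows of this length. The Fasn window held 3 CCAAT matches, between 90 and 55 bases before the start, and the last pair overlap on opposite strands. GGGCGG was found in 5 of 10 windows, against 35.7% of all windows. Acss2 held 5 of these matches, and Acly and Slc25a1 held 4 each.

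CACGTG was found in 3 of 10 windows, those of Slc25a1 and of the upstream starts of Mlxipl and Pcx, against 7.15% of all windows. TCACNCCAC was found in 1 of 10 windows, 136 bases before the downstream Mlxipl start, against 1.24% of all windows. AGGTCA was found in 3 of 10 windows, against 16.3% of all windows. Its matches lay 40 bases before the Acly start and 43 and 39 bases after the Acacb start and the downstream Pcx start, the last overlapping a CCAAT match by 1 base. The longer ROR response element, searched by its consensus, was in 0 of 10 windows, against 0.384% of all windows. These matches describe letters in short windows and say nothing of binding in the tissue.

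**Figure D1:**
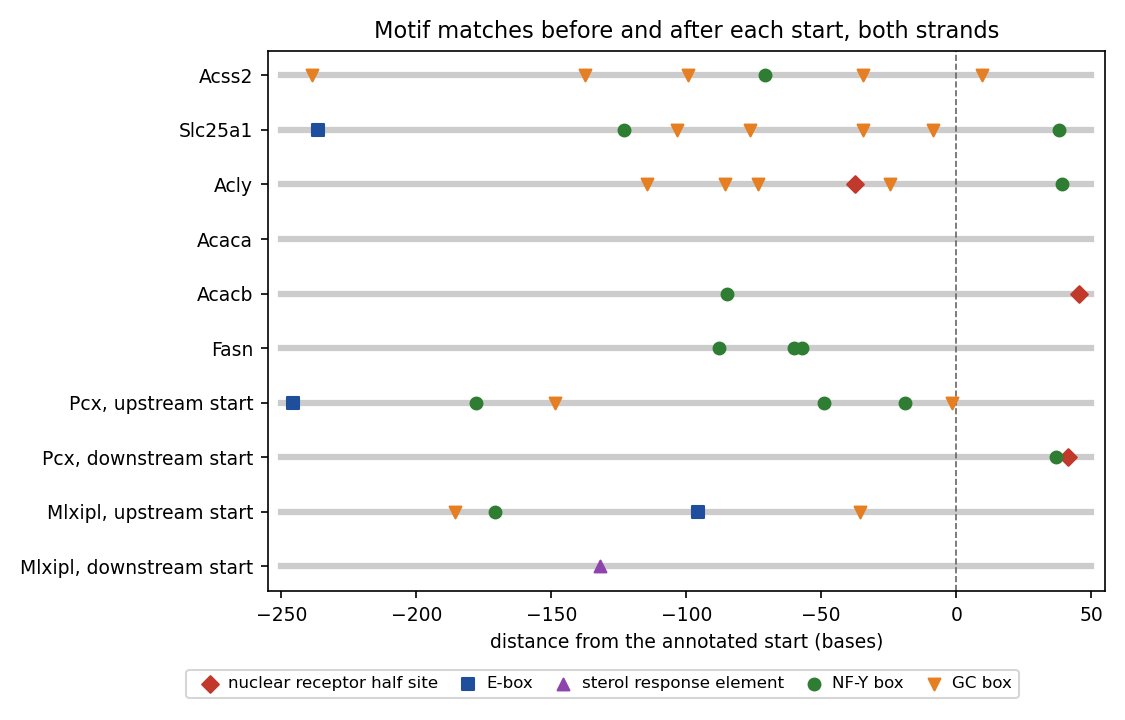
Positions of motif matches in the promoter windows of the lipogenesis genes. The horizontal axis is the distance in bases from the annotated start (dashed line), each row is one window, and each symbol is the centre of a match on either strand. NF-Y boxes appear in 8 of 10 windows and GC boxes in 5, and the Acaca window holds no match to any of the motifs.

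Log2 ratios of DKO over WT brown fat were below 0 on both arrays for 7 of the 8 measured lipogenesis genes. This compares with 17.9% of all 27309 measured genes and transcripts, of which 17217 had signs that differed between arrays. The 7 include Fasn, whose saturated probe gave no direction with DKO in Cy5, and without it the count was 6 of 7. Among the 2955 brighter genes, whose average log2 intensity was 9 or more, 19.0% were below 0 on both arrays. The median log2 ratio of DKO over WT was −0.49 over the 8 genes and 0.002 over all measured genes. Acss2 passed the 2-fold rule as lower, 1 of 8 members against 0.0256% of all measured genes, and 0 members passed it as higher, against 0.103%. The Acss2 call was lost, leaving 0 members, when the probes of a gene were averaged and when the array with DKO in Cy3 was taken alone. A looser rule, a mean of at least 1.5-fold with the same sign on both arrays, took in Acss2 and Acly, 2 of 8 members lower against 0.275% of all measured genes and 1.22% of brighter ones. In the other direction it took in 0 members, against 1.86% of brighter genes. Over all 14 probes, 4 met the looser rule: 2 of Acss2, 1 of Acly and the RIKEN clone probe placed at Fasn. Probes of a gene are not separate members, and the share over all probes in use was not computed. The clone probe cannot be taken as a measure of Fasn messenger RNA. Skeletal muscle markers were higher in DKO in the same RNA, with a median log2 ratio of 0.63 over 11 genes, and their part in the result was not tested. With tissue RNA, fewer cells that express a gene and less RNA per cell cannot be told apart.

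Every one of the 14 probes was well above background in at least one genotype on both arrays, so no member was lost to the filter on dim probes. A gene is represented by its brightest probe, and the other probes are given beside it. Values below are normalised channel intensities, which can be compared between the genotypes on an array but not between probes, since probes differ in labelling and binding. Errors are the SD over 2 arrays, which holds dye effects and measurement error. It cannot be taken as the spread between mice, since the labels do not say whether the arrays shared extracts.

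Acss2 encodes the cytosolic acetyl-CoA synthetase, which makes acetyl-CoA from acetate. Its brightest probe (A_51_P488399) read 845 in DKO and 2202 in WT with DKO in Cy5, and 874 in DKO and 1733 in WT on the array with DKO in Cy3. DKO thus read lower than WT on each array. The mean log2 ratio was −1.19 ± 0.28 (SD, n = 2 arrays), which puts DKO at 44.0% of WT. It ranked 3 from the lowest of 27309 genes and transcripts.

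The second Acss2 probe (A_52_P566718) read 486 in DKO and 878 in WT with DKO in Cy5, and 481 in DKO and 852 in WT with DKO in Cy3. Its ratio of −0.84 ± 0.02 (SD, n = 2 arrays) was nearly the same in both dye orientations, at 55.9% of WT. The other probe (A_52_P569324) was dim, with 136 in DKO and 136 in WT on one array and 125 in DKO and 120 in WT on the other. The log2 ratio was 0.03 ± 0.04 (SD, n = 2 arrays). It carries the file's older Acss2 name but no accession that ties it to the gene, and which transcript it detects was not tested.

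Acly encodes ATP citrate lyase, which splits cytosolic citrate into acetyl-CoA and oxaloacetate. Its brightest probe (A_51_P261718) read 2140 in DKO and 5104 in WT with DKO in Cy5, and 2435 in DKO and 4011 in WT with DKO in Cy3. DKO was lower on both arrays, and the difference was larger with DKO in Cy5. The mean log2 ratio of −0.99 ± 0.38 (SD, n = 2 arrays) ranked 8 from the lowest of all measured genes. It amounts to 1.98-fold lower in DKO, just short of the 2-fold rule. With the scanner software's own ratios the mean was −1.001 and Acly passed the rule, together with Acss2 at −1.24, against 0.0989% of all measured genes called lower that way.

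The other Acly probe (A_52_P373556), matched through a RIKEN clone, was dim. It read 120 in DKO and 119 in WT with DKO in Cy5, and 89 in DKO and 94 in WT on the other. Its signs differed between arrays, with a mean of −0.04 ± 0.06 (SD, n = 2 arrays).

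**Figure D2:**
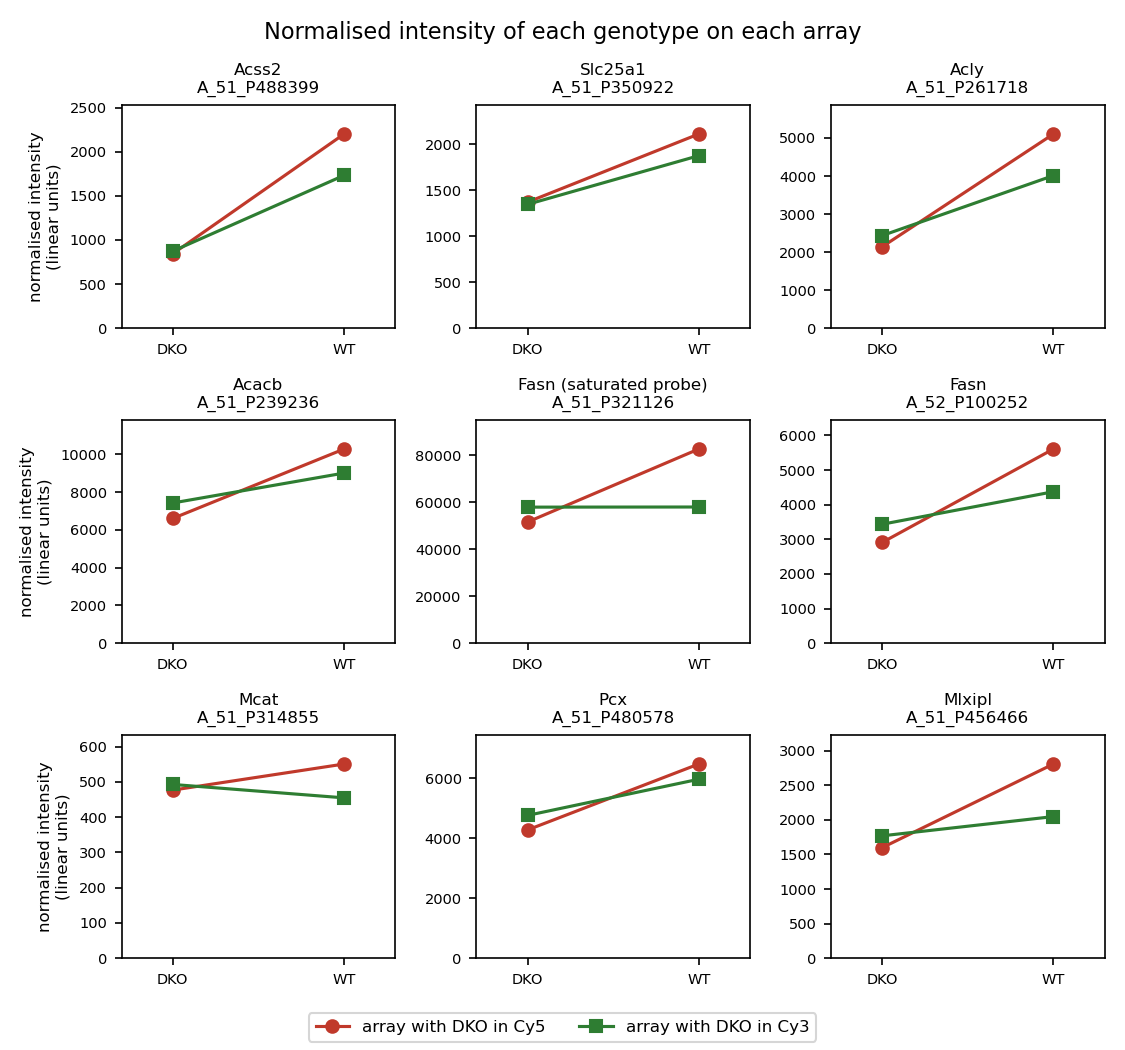
Normalised intensity of each genotype on each array for the brightest probe of each lipogenesis gene and the unsaturated clone probe placed at Fasn. The vertical axes are linear, start at 0 and differ between panels. DKO is left and WT right, and each line joins the genotypes of an array, red circles with DKO in Cy5 and green squares with DKO in Cy3. Acss2 and Acly lie lower in DKO on both arrays, while the Mcat lines cross.

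Pcx and Slc25a1 act before citrate is split. Pcx encodes pyruvate carboxylase, the mitochondrial enzyme that makes oxaloacetate, and Slc25a1 encodes the carrier that exports citrate from mitochondria. Slc25a1 (A_51_P350922) read 1372 in DKO and 2114 in WT with DKO in Cy5, and 1348 in DKO and 1878 in WT with DKO in Cy3. The log2 ratio was −0.55 ± 0.10 (SD, n = 2 arrays), with DKO at 68.2% of WT. Pcx (A_51_P480578) read 4278 in DKO and 6477 in WT with DKO in Cy5, and 4763 in DKO and 5969 in WT with DKO in Cy3. Its log2 ratio was −0.46 ± 0.19 (SD, n = 2 arrays), with DKO at 72.6% of WT. Both genes were lower in DKO on both arrays, and neither mean reached 1.5-fold. With DKO in Cy5 alone both passed it, with DKO at 64.9% of WT for Slc25a1 and 66.1% for Pcx.

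Acetyl-CoA carboxylase makes malonyl-CoA. The form encoded by Acacb sits at mitochondria, where its product restrains fatty acid entry, and the form encoded by Acaca is the cytosolic one that feeds fatty acid synthase. Acacb (A_51_P239236) read 6607 in DKO and 10280 in WT with DKO in Cy5, and 7424 in DKO and 9007 in WT with DKO in Cy3. DKO was lower on both arrays, with a log2 ratio of −0.46 ± 0.25 (SD, n = 2 arrays). A second, dim Acacb probe (A_52_P340167) had opposite signs on the arrays, with a mean of −0.04 ± 0.17 (SD, n = 2 arrays). Both Acacb probes were named by the file's description, so they rest on the design's annotation.

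The 5 carboxylase probes without a gene name disagreed with each other. The brightest (A_52_P318040), whose form is not given, read 671 in DKO and 1510 in WT with DKO in Cy5, but 947 in DKO and 965 in WT with DKO in Cy3. Its log2 ratio was −1.17 on the first of these arrays and −0.03 on the other, so the size rests on 1 dye orientation. The other probe of no stated form (A_52_P595124) had a mean of −0.04 ± 0.12 (SD, n = 2 arrays).

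The remaining 3 are described by a numbered form that is a name of the carboxylase Acaca encodes. Of these, A_52_P23177 had a mean log2 ratio of −0.06 ± 0.08 and A_52_P132591 one of −0.16 ± 0.02 (SD, n = 2 arrays). A_51_P439426 read 125 in DKO and 207 in WT with DKO in Cy5, and 138 in DKO and 162 in WT with DKO in Cy3, a mean of −0.48 ± 0.36. None of the 5 probes passed the 2-fold rule, and A_52_P318040 met the 1.5-fold rule through its first array. No single value for Acaca is given, since no probe carries its name and the 3 probes of the described form ranged from −0.48 to −0.06.

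Fasn encodes fatty acid synthase, and its named probe (A_51_P321126) was at the scanner limit. On the array with DKO in Cy5, all 29 pixels of the spot were saturated in both channels, with mean signals of 65326 in DKO and 65250 in WT before normalisation. On the array with DKO in Cy3, WT was again saturated in all 29 pixels at 65326, while DKO read 51380 with no saturated pixel. WT thus had no measured upper value on either array, and no fold change is given for this probe. With DKO in Cy5 both channels were at the limit, so the log2 ratio of −0.68 there gives no direction. With DKO in Cy3 the log2 ratio was −0.001, where the software's ratio was 0.04. The probe counts among the 7 members below 0 by the −0.68 and −0.001 alone. Without it, the median log2 ratio over the other 7 genes was −0.51.

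A second probe placed at Fasn (A_52_P100252), matched through a RIKEN clone, was far from saturation. It read 2909 in DKO and 5606 in WT with DKO in Cy5, and 3434 in DKO and 4373 in WT with DKO in Cy3. DKO was lower on both arrays, and the mean log2 ratio was −0.65 ± 0.42 (SD, n = 2 arrays), with DKO at 63.8% of WT. The file describes this clone as unclassifiable. The labels and files give neither its position nor its strand within the Fasn locus, so its ratio cannot be taken as that of the Fasn messenger RNA.

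Mcat encodes the mitochondrial malonyl transferase, which works in the separate fatty acid synthesis route of mitochondria. Its probe (A_51_P314855) read 477 in DKO and 551 in WT with DKO in Cy5, and 493 in DKO and 455 in WT with DKO in Cy3. The signs differed between arrays, with a mean log2 ratio of −0.05 ± 0.23 (SD, n = 2 arrays). It was the 1 measured member with no shared direction on the arrays.

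Mlxipl, the gene of the regulator ChREBP, had 2 probes of similar mean ratio. The brighter (A_51_P456466) read 1598 in DKO and 2807 in WT with DKO in Cy5, and 1769 in DKO and 2047 in WT with DKO in Cy3. The other (A_52_P423188) read 694 in DKO and 1013 in WT with DKO in Cy5, and 700 in DKO and 1033 in WT with DKO in Cy3. Each probe read lower in DKO than in WT on both arrays. The mean log2 ratios were −0.51 ± 0.43 and −0.55 ± 0.01 (SD, n = 2 arrays each), with DKO at 70.2% and 68.2% of WT. The first probe's ratios differed between dye orientations, at −0.81 and −0.21, and the other's lay close together, at −0.54 and −0.56.

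**Figure D3:**
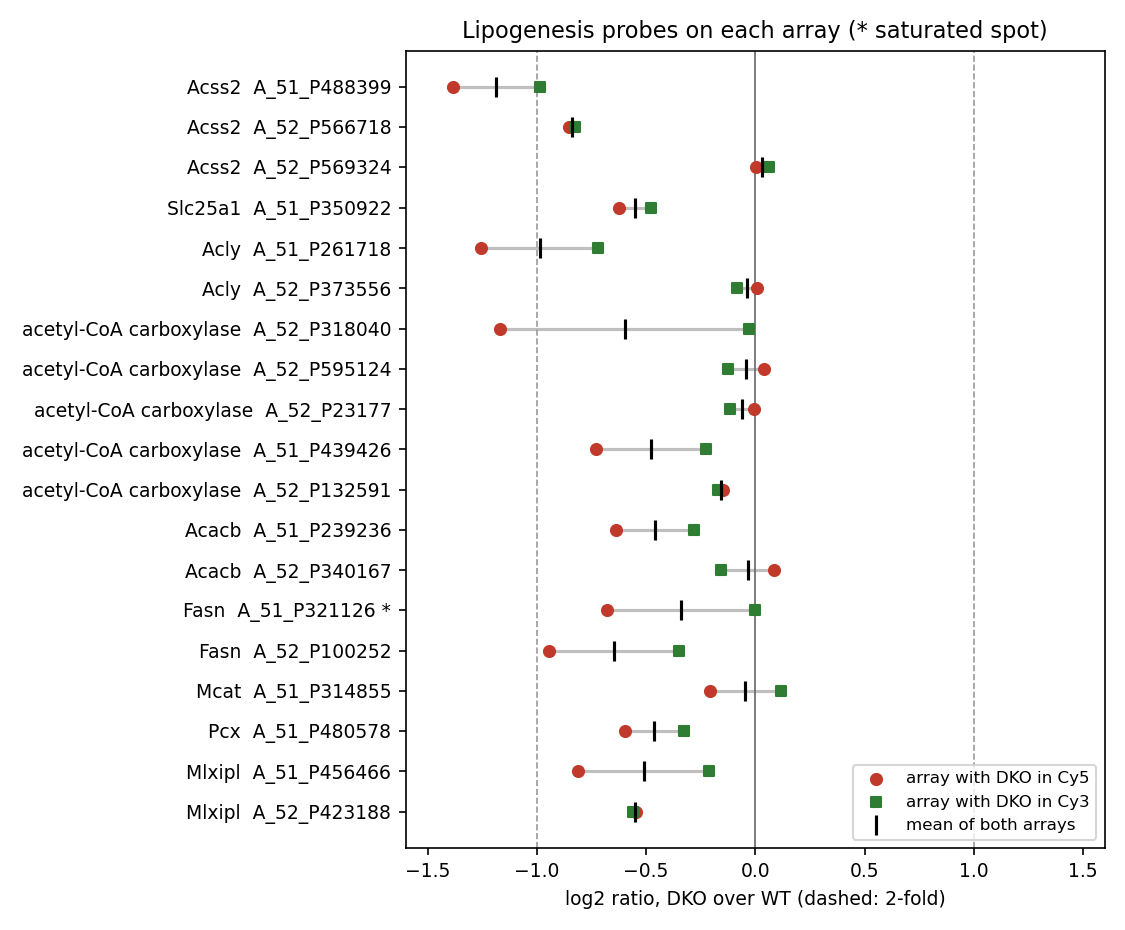
Log2 ratio of DKO over WT for every probe of the lipogenesis genes and the unnamed acetyl-CoA carboxylase probes. Red circles are the array with DKO in Cy5, green squares the array with DKO in Cy3, and black ticks their mean; dashed lines mark 2-fold and the asterisk a saturated probe. The bright Acss2 and Acly probes lie farthest left, and the dim probes of Acss2, Acly and Acacb lie near 0.

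The members' ratios were larger with DKO in Cy5. The median over the 8 genes was −0.66 with DKO in Cy5, against −0.30 with DKO in Cy3. Without the saturated Fasn probe these medians were −0.64 and −0.33. All measured genes had medians of 0.0085 and −0.0046 on these arrays. The part of dye in this difference was not tested. The ratios of the 2 arrays had a Pearson correlation of −0.011 over all 27309 measured genes and 0.108 over the 2955 brighter ones, as a description over probes that share both hybridisations. Slc25a1, Mlxipl, Pcx and Acacb ranked 86, 101, 135 and 139 from the lowest of 27309 mean ratios. Their mean ratios, between −0.55 and −0.46, differed by less than the SD of each, so their order is not settled.

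The scanner software's error model gives a p-value for each ratio, which covers measurement error on an array and not the mice. In the authors' deposited spot data these values for the bright Acss2 probe were 2.41e-13 with DKO in Cy5 and 3.73e-09 with DKO in Cy3. In the authors' deposited spot data they were 2.10e-11 and 1.43e-05 for Acly and 2.33e-04 and 1.74e-03 for Slc25a1. Counted here from the authors' deposited p-values, 3 of the 8 brightest probes were under 0.01 on both arrays with DKO lower, against 0.439% of all measured genes.

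**Figure D4:**
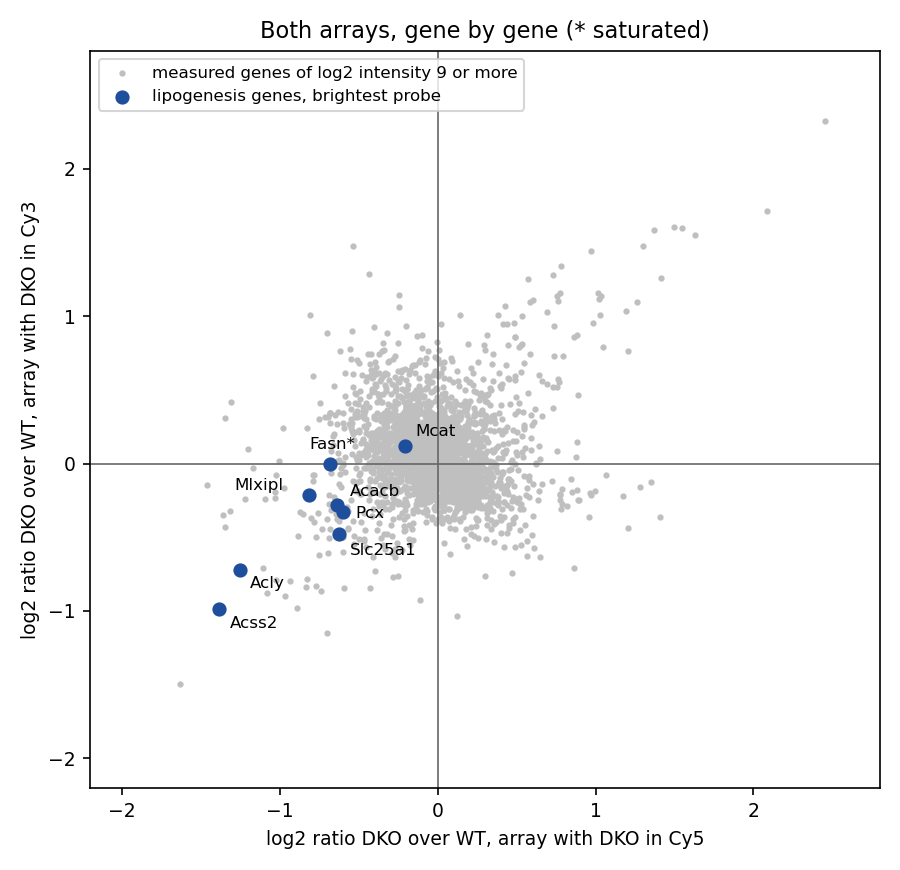
Log2 ratio of DKO over WT with DKO in Cy5 (horizontal) and with DKO in Cy3 (vertical). Grey points are the 2955 brighter genes (average log2 intensity of 9 or more), and blue points are the brightest probes of the lipogenesis genes, with the asterisk on saturated Fasn. Of the 8 blue points, 7 lie at or below 0 on both axes, and Acss2 and Acly lie farthest to the lower left.

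Around the members, 7 lists of neighbouring genes held 55 measured genes, of which 0 passed the 2-fold rule in either direction. At 1.5-fold, 4 were lower and 2 higher in DKO, against 0.275% and 0.359% of all measured genes. Among the brighter genes these shares were 1.22% and 1.86%. Below 0 on both arrays were 19 of the 55, against 17.9% of all measured genes, and above 0 on both were 9, against 19.1%. Their median log2 ratio was 0.009, beside 0.002 over all measured genes.

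Among 9 measured genes of SREBP and LXR control, 1 was below 0 on both arrays and 1 above, and the median was 0.07. Srebf1, the gene of SREBP-1, read 2237 in DKO and 3599 in WT with DKO in Cy5, and 2584 in DKO and 3131 in WT with DKO in Cy3, a log2 ratio of −0.48 ± 0.29 (SD, n = 2 arrays). Scap, which escorts SREBP to the Golgi, was at 0.20 ± 0.25 (SD, n = 2 arrays). The Srebf1 ratio lay within the range of the members' ratios, while 7 of the 9 genes of the list had signs that differed between arrays.

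The ChREBP partners and co-regulators had 5 measured genes, with a median of −0.07, and Mlxip, also listed as Mondoa, was not measured under either name. Thrsp, known as Spot 14 and a marker of lipogenic tissue, read 13468 in DKO and 24626 in WT with DKO in Cy5, and 16798 in DKO and 21120 in WT with DKO in Cy3. Its log2 ratio was −0.60 ± 0.38 (SD, n = 2 arrays), which met the 1.5-fold rule. Mid1ip1, which binds acetyl-CoA carboxylase and promotes its assembly, was at −0.53 ± 0.34 (SD, n = 2 arrays).

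Citrate, acetate and pyruvate supply had 16 measured genes, 5 below 0 and 3 above 0 on both arrays, and a median of −0.03. Me1, the malic enzyme that supplies NADPH for fatty acid synthesis, read 1872 in DKO and 3815 in WT with DKO in Cy5, and 2079 in DKO and 3595 in WT with DKO in Cy3. Its log2 ratio was −0.91 ± 0.17 (SD, n = 2 arrays). Acss1, the mitochondrial acetyl-CoA synthetase and relative of Acss2, went the other way. It read 3833 in DKO and 2462 in WT with DKO in Cy5, and 4065 in DKO and 2680 in WT with DKO in Cy3. Its log2 ratio of 0.62 ± 0.03 (SD, n = 2 arrays) stood opposite to the −1.19 of Acss2.

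Malonyl-CoA use and removal had 4 measured genes and a median of 0.11. Mlycd, the decarboxylase that breaks malonyl-CoA down, read 2641 in DKO and 1763 in WT with DKO in Cy5, and 3061 in DKO and 1831 in WT with DKO in Cy3. Its log2 ratio was 0.66 ± 0.11 (SD, n = 2 arrays), higher by the 1.5-fold rule. Cpt2, a carnitine transferase of mitochondrial fatty acid entry, was at 0.27 ± 0.002 (SD, n = 2 arrays).

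Fatty acid finishing, the elongation and desaturation of palmitate together with the mitochondrial synthesis enzymes, had 9 measured genes of 10, with 5 below 0 and 1 above 0 on both arrays. Scd2, a desaturase, was at −0.91 ± 0.28 and Elovl5, an elongase, at −0.72 ± 0.18 (SD, n = 2 arrays each), both lower by the 1.5-fold rule. The second Elovl5 probe was at −0.54 ± 0.24 (SD, n = 2 arrays). The list's median was −0.02.

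Biotin enzymes, which share the cofactor of Pcx and the carboxylases, had 5 measured genes and a median of 0.01. Mccc1, a carboxylase of leucine breakdown, was at 0.28 ± 0.01, and Hlcs, which attaches biotin, was at −0.12 ± 0.15 (SD, n = 2 arrays each). AMP-activated kinase, which inhibits acetyl-CoA carboxylase, had 7 measured genes of 8 and a median of −0.03. Its catalytic subunits Prkaa1 and Prkaa2 were at 0.34 ± 0.13 and −0.23 ± 0.06 (SD, n = 2 arrays each), and 0 genes of either list met the 1.5-fold rule.

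**Figure D5:**
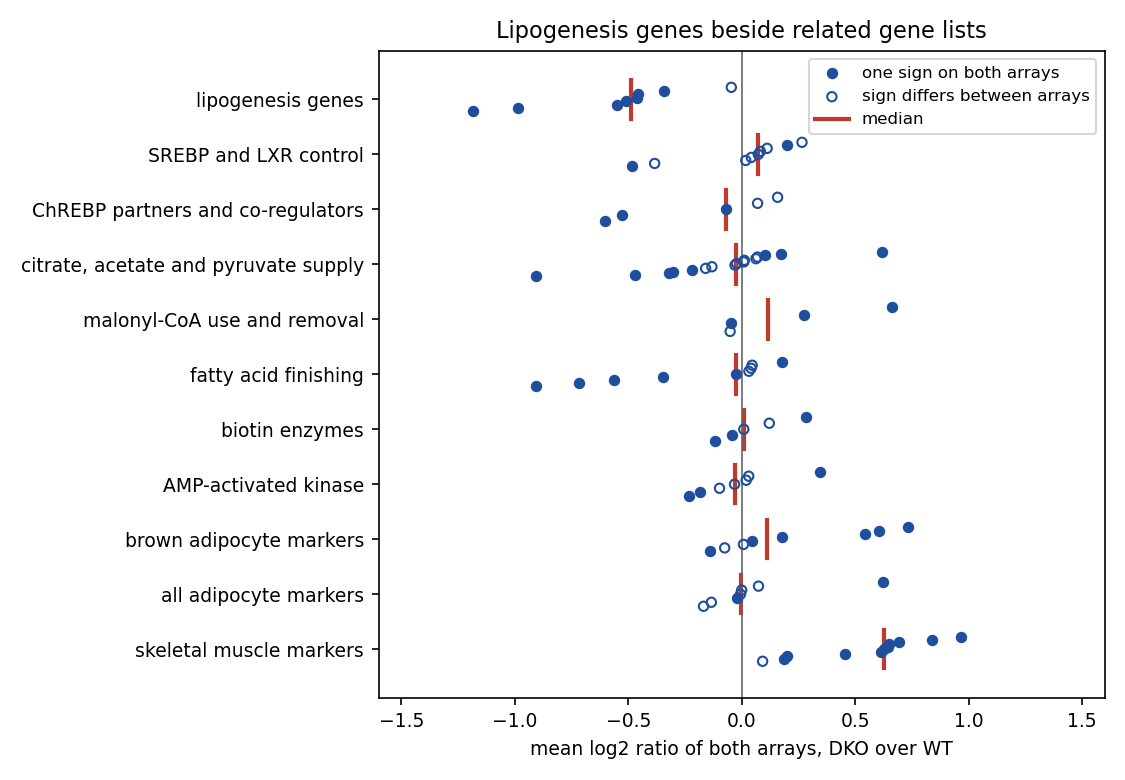
Mean log2 ratio of DKO over WT for the lipogenesis genes, the 7 neighbouring lists and 3 marker lists. Each point is the brightest probe of a gene, filled where both arrays have the same sign and open where the signs differ, and red bars are list medians. The lipogenesis median is −0.49, the neighbouring lists have medians between −0.07 and 0.11, and the skeletal muscle markers have a median of 0.63.

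The label of brown fat was checked on marker genes. Ucp1, the uncoupling protein of brown fat, read 34682 in DKO and 20791 in WT with DKO in Cy5, and 37912 in DKO and 22834 in WT with DKO in Cy3. The 8 brown adipocyte markers had a median log2 ratio of 0.11, with Cidea saturated. Of these 8, 5 were above 0 on both arrays, against 19.1% of all measured genes, and 1 was below 0 on both. By the 1.5-fold rule 2 were higher, against 0.359% of all measured genes and 1.86% of brighter ones. The 2 were Ucp1 at 0.73 ± 0.005 and Ppara at 0.61 ± 0.04 (SD, n = 2 arrays each). The 7 genes of all adipocytes had a median of −0.01, with Fabp4 saturated, and Pparg, the adipocyte master regulator, was at −0.02 ± 0.003 (SD, n = 2 arrays). In that list 1 gene was higher by the 1.5-fold rule, Lpl at 0.62 ± 0.15 (SD, n = 2 arrays), and 5 had signs that differed between arrays. Skeletal muscle markers moved with the genotype: 10 of 11 measured markers were above 0 on both arrays, against 19.1% of all measured genes. By the 1.5-fold rule 7 of them were higher, against 0.359% of all measured genes and 1.86% of brighter ones. Ckm, 1 of these 7, was at 0.05 with DKO in Cy5 and 1.25 with DKO in Cy3. Their summed intensity was 21966 in DKO and 16102 in WT with DKO in Cy5, and 24178 in DKO and 14788 in WT with DKO in Cy3. The medians of the macrophage and liver markers were 0.04 and 0.07. The 4 measured white adipocyte markers had a median of −0.003, and 1 of them passed the 2-fold rule as lower, against 0.0256% of all measured genes. This was Lep, at −1.08 ± 0.42, while Agt was at 0.30 ± 0.07 (SD, n = 2 arrays each). The part of other cell types in the lipogenesis values was not tested. Rora, the named targeted gene, was at −0.38 ± 0.04 and −0.47 ± 0.10 on 2 dim probes (SD, n = 2 arrays each), and at −0.96 and −1.52 with the software's ratios. Whether these probes lie in the deleted part of Rora was not stated.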

How the data were processed

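RNA of interscapular brown fat from DKO and WT mice was measured on 2 Agilent arrays of 2 colours with reversed dyes. Images were extracted by the authors in Agilent Feature Extraction 7.5, per the submitters' processing notes. The deposited spot files hold linear intensity for spot and local background, per the file headers. They also hold the software's log10 ratio of red over green and a p-value of that ratio from its error model, as deposited per the file headers. The deposited value table holds log2 ratios of red over green, which matched the software's ratios within 0.001 for 40949 of 40973 and 40947 of 40975 probes, with medians of 0; its later processing is not stated. The labels state 2 different amounts of starting RNA.

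Mean signals were corrected by normexp (offset 50) against the median local background and loess-normalised within each array (limma 3.58.1, R 4.3.3), leaving controls at weight 0. This offset shrinks ratios of dim probes. Ratios with DKO in Cy3 were turned in sign, and the mean over both arrays was taken. Outlier spots were left out (171 and 29), saturated ones kept (12 and 14). In each channel 77.4% to 85.2% of spots were well above background, and the number of arrays limits the precision. Each pathway list gave its called genes or else the 2 measured genes of largest mean ratio with one sign on both arrays. The script was tested on simulated arrays. Members and lists were chosen with earlier results of these data known. Gene names came from RefSeq (GRCm38.p6), by accession, symbol, older symbol or clone; 16631 probes matched no name there. An item that the labels name is not reported here.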

Additional observations from a re-analysis of the deposited data

How the results depend on the processing

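The median log2 ratio of the lipogenesis genes stayed below 0 under every alternative tried, between −0.66 with the array with DKO in Cy5 alone and −0.30 with the other array alone. It was −0.34 with median centring, which moved the median of brighter genes to 0.14, −0.46 without Acss2, and −0.53 with the RIKEN clone probe in place of the saturated Fasn probe, an alternative chosen after seeing the data that does not make this probe a measure of Fasn messenger RNA. The count of members called lower was 1, and 2 with the software's ratios, the value table, the array with DKO in Cy5 alone or a 1.5-fold threshold. It was 0 with the array with DKO in Cy3 alone, a 3-fold threshold or the mean over all probes of a gene. Members called higher were 0 throughout. In the pathway lists, genes called lower were 0, against 2 with the array with DKO in Cy5 alone and 4 at 1.5-fold, and genes called higher were 0, against 2 at 1.5-fold.

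Of all measured genes, 7 were called lower and 28 higher. With an offset of 16, 13 were called lower. The value table and the software's ratios each gave 27 lower and 52 higher. The array with DKO in Cy5 alone gave 37 lower, and the array with DKO in Cy3 alone 53 higher. A threshold of 1.5-fold gave 75 lower and 98 higher, and 3-fold gave 0 lower and 6 higher. Averaging the probes of a gene gave 4 lower and 22 higher. The cause was not tested, except that thresholds and single arrays change the rule itself. Of 34 named probes, 5 changed sign in some alternative, all with mean ratios between −0.06 and −0.04. No paired analysis was possible because there was 1 replicate per genotype and no test. The arrays' number, and saturation for Fasn, limit what can be said.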
